A study of Homo sapiens with 6 samples.

Results

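The interferon-stimulated genes are described here in DLD1 cells, a human colorectal cancer cell line, as 38 genes chosen by name from the 58884 Ensembl genes of a table of RNA-seq counts. All 38 were found in the table. DLD1 parental cells, which carry a helical domain mutation of PIK3CA, were compared with DLD1 cells with a homozygous knock-in of K477A and R478A in PIK3R2, which encodes the PI3K regulatory subunit p85β (p85β KR-AA cells, here also called mutant). These changes lie in the nuclear localization sequence of p85β, and the paper reports that p85β with them stayed out of the nucleus. Each group had 3 libraries of total RNA, for which the labels name no treatment. The titles and genotype fields give K477A and R478A for all 3 mutant libraries, while the source field of replicates 2 and 3 names other residues in place of the second. The labels do not say from which of the study's 2 independently derived knock-in clones a mutant library came. Differences due to the mutation and those due to deriving a clone cannot be told apart in this design. The labels number the replicates without saying whether they were separate cultures, so that p-values measure the spread between these libraries, which may be technical.

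Interferons are secreted when a cell senses foreign nucleic acid. They bind receptors on the cell surface, whose JAK kinases act on a transcription factor complex that holds STAT2 and IRF9 and binds the interferon-stimulated response element in the promoters of a large set of genes. Many epithelial and tumor cells also express part of this program at a low level with no added interferon. The products of these genes detect viral RNA, block its translation or degrade it, and attach the ubiquitin-like protein ISG15 to other proteins.

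Values are estimated counts deposited by the authors, scaled here with TMM normalization to CPM, counts relative to the effective library size, and a difference is the log2 fold change of p85β KR-AA over parental cells from edgeR's quasi-likelihood test. A gene was called up- or down-regulated where it passed both limits that the study's methods set, a 3-fold change and an adjusted p-value below 0.01. Library totals were between 20301396 and 26712816 counts. The difference between the groups was broad, and 28.6% of the 16059 genes tested were up-regulated and 17.6% down-regulated. The edited gene PIK3R2 had 34.8, 12.3 and 19.3 CPM in the parental and 13.7, 16.6 and 4.55 CPM in the mutant libraries, and these levels overlapped (log2 fold change -0.93, standard error 0.42, adjusted p = 0.0558). A readthrough gene over PIK3R2 and IFI30 had more counts than PIK3R2 in every library and was down-regulated (log2 fold change -1.78, adjusted p = 5.39e-07). The level of PIK3R2 alone therefore depends on how reads of shared exons were divided between them. Scaling by library totals in place of TMM raised the median log2 fold change over all genes by 0.92 and gave 43.9% of genes up-regulated and 6.06% down-regulated. With length and GC offsets, which remove a relation of counts with gene length and GC content in each library, these shares were 17.8% and 6.55%. The summed level of 12 colon epithelial markers was 57230 to 79260 CPM in parental and 8813 to 10310 CPM in mutant libraries, while EPCAM, CDH1 and CDX2 were present in all 6 and CDX1 had at most 3 counts in each. A sum is set mostly by the most abundant markers. Of the 11 tested, 6 were down-regulated and 2 up-regulated. With length and GC offsets 2 were down-regulated and 0 up-regulated. The summed level of 10 mesenchymal markers was 7.65 to 10.5 CPM in parental libraries, and 6312 to 7228 CPM in mutant libraries, of which VIM and FN1 made up nearly all. The part of these marker differences in the results on interferon-stimulated genes was not tested. For 8 lymphoid markers the sums were 0.133 to 0.494 CPM and 0.136 to 0.313 CPM, and for 8 myeloid markers 56.6 to 68.4 CPM and 38.0 to 46.7 CPM. PTPRC, which marks leukocytes, had 0 counts in parental libraries, against 0, 0 and 3 in the mutant libraries, and TYROBP had no count in any library. In RNA from whole cultures, fewer cells that express a gene and less RNA per cell cannot be told apart.

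Of the 38 interferon-stimulated genes, 36 had enough counts to be tested, and they did not move as one group. A total of 13 were up-regulated and 6 were down-regulated, and 17 did not pass both thresholds. Up-regulated genes made up 36.1% of the members tested against 28.6% of all genes tested, and down-regulated genes 16.7% against 17.6%, so that neither share was far from that of the transcriptome. In 33 of the 36 members the groups did not overlap, with 20 above (47% of all genes tested) and 13 below (36.5%), where 83.5% of all genes tested showed no overlap. On the adjusted p alone, 19 members were higher and 11 lower, against 41.6% and 32.7% of all genes. The median log2 fold change of the members was 1.30, and that of all genes tested was 0.32. Their difference of 0.98 was 0.97 under library totals, where the medians were 2.21 and 1.24. It was 0.59 with length and GC offsets (medians of 0.86 and 0.27), and with at least 10 counts in every library, which left 26 members, it was 0.026 (medians of 0.13 and 0.10). XAF1 and TRIM22 could not be tested. XAF1, a partner of the apoptosis inhibitor XIAP, had 1 count in a single mutant library and none elsewhere. TRIM22, a ubiquitin ligase that restricts viruses, had 3, 2 and 5 parental counts, against 17.4, 5.02 and 9.71 in mutant libraries.

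**Figure D1:**
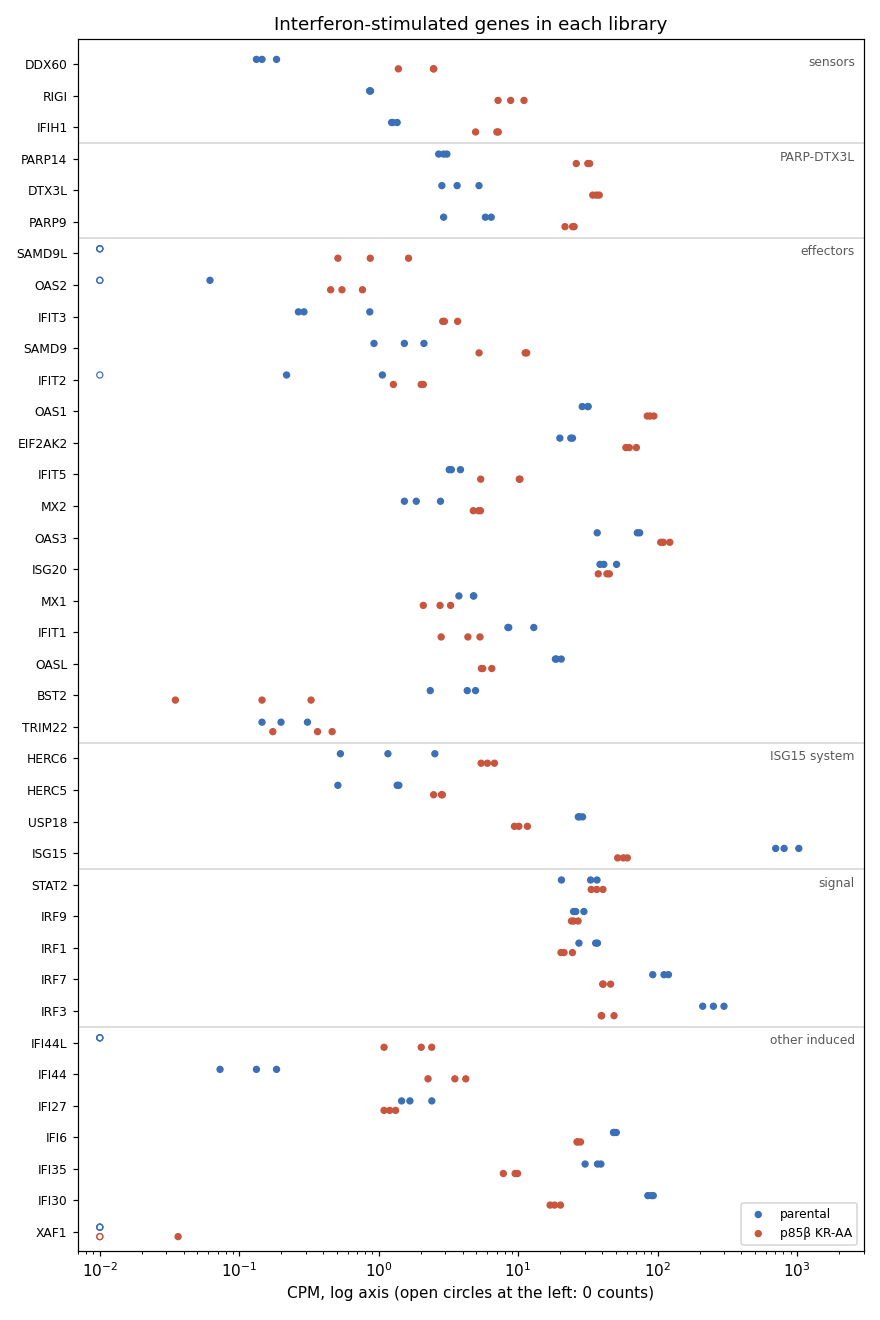
Level of each of the 38 interferon-stimulated genes in each library, in CPM on a log axis, grouped by role. Blue points are the 3 parental libraries, red points the 3 mutant libraries, and open circles at the left edge are libraries with 0 counts. The sensors and the PARP-DTX3L genes lie to the right in p85β KR-AA cells, and ISG15, IRF3 and BST2 to the left.

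What the members shared beside their name was looked for in their promoters. RefSeq windows of GRCh38.p14, from 250 bases before to 50 bases after the start site, were matched by symbol for 30 of the 38 genes. Those with no entry were IFIT2, MX2, OAS2, OASL, IRF3, IRF7, TRIM22 and USP18. The core of the interferon-stimulated response element, GAAANNGAAA searched on both strands, occurred in 20 of the 30 members (66.7%) and in 4.38% of the 27305 genes with a window. It was present in 9 of the 12 up-regulated and 2 of the 4 down-regulated members that had a window. Among tested members the median log2 fold change was 1.41 for the 20 with the motif and 0.29 for the 9 without it, and with the motif single values ran from -4.38 for BST2 to 4.59 for IFI44, beside IFI44L, which had no parental count. RIGI, HERC6, SAMD9L, OAS1, STAT2, IRF1, IRF9, IFI35, IFI30 and XAF1 had no match in these windows. The gamma-activated site, TTCNNNGAA, an element of genes induced by interferon gamma, occurred in 9 of the 30 members (30%) and in 9.38% of all genes. It was present in 2 of the 12 up-regulated and 2 of the 4 down-regulated members. Here the median log2 fold change was -0.60 for the 9 tested members with the motif and 1.79 for the 20 without it. Neither difference in medians was tested. In 3 members (BST2, IFI27 and MX1) a window held both motifs with overlapping bases. A match is a description of the letters and was not shown to be bound in these cells.

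The 200 bases before the start site are shown for a pair of genes that were lower in p85β KR-AA cells, ISG15 and IFIT1, and a pair that rose, PARP14 and DDX60. They are given 5′ to 3′ on the strand of the gene, with matches to the response element core on either strand in capitals. ISG15 has a pair of matches that share 4 bases, IFIT1 has a pair on the opposite strand, PARP14 has a single match close to its start, and DDX60 has a pair.
ISG15 (chr1:1013297-1013496, plus strand): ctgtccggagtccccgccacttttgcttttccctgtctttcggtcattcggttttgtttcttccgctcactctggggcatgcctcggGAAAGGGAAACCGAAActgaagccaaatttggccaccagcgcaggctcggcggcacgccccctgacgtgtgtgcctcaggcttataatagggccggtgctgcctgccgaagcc
IFIT1 (chr10:89392423-89392622, plus strand): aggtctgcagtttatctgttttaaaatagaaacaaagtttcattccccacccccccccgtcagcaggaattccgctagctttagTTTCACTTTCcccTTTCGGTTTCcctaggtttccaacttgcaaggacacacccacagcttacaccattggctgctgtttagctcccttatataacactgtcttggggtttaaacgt
PARP14 (chr3:122680639-122680838, plus strand): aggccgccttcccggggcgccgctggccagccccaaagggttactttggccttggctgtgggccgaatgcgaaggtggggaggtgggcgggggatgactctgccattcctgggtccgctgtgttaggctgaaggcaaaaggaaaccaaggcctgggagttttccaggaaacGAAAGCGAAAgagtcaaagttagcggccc
DDX60 (chr4:168318753-168318952, minus strand): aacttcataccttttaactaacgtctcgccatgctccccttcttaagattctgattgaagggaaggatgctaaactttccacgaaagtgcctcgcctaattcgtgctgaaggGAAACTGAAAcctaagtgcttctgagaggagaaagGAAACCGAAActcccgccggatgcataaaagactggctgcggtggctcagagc

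Stretches of 30 bases around the first match are shown for other members that rose (IFIT3, IFI44, SAMD9 and DTX3L), fell (BST2), or did not pass both thresholds (IFIT5, MX1 and OAS3), so that the letters can be compared between genes with different responses. They too are given on the strand of the gene, which is the minus strand for SAMD9 and BST2. The GAAACTGAAA core of the rising genes SAMD9 and DTX3L is also that of BST2, which fell, and of OAS3. The match of DTX3L, at chr3:122564332-122564341, is also the match of PARP9 on the opposite strand. The match of MX1 lies just after its start site.
IFIT3 (chr10:89327831-89327860): agccgttaggTTTCATTTTCctcctcccaa
IFI44 (chr1:78649761-78649790): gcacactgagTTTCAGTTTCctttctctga
SAMD9 (chr7:93118096-93118125): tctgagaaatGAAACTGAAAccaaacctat
DTX3L (chr3:122564322-122564351): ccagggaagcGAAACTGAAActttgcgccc
BST2 (chr19:17405741-17405770): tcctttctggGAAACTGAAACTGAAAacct
IFIT5 (chr10:89414513-89414542): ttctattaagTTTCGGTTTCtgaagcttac
MX1 (chr21:41420559-41420588): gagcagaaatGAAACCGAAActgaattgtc
OAS3 (chr12:112938321-112938350): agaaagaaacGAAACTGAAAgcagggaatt

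The cytosolic RNA sensors rose. RIGI (listed also as DDX58) and IFIH1 (MDA5) recognize viral double-stranded RNA, and DDX60 is a helicase linked to RIGI signaling. All 3 were up-regulated, as were 28.6% of all genes tested. In all 3 every mutant library lay above the parental libraries, as in 47% of all genes tested. RIGI and DDX60 have 4628 and 6015 bases, and 50.9% of all genes tested over 4000 bases were up-regulated. IFIH1 has 3581 bases, and among genes of over 2000 and up to 4000 bases the share was 23.9%. RIGI had 0.864, 0.874 and 0.864 CPM in the parental and 11.0, 8.84 and 7.18 CPM in the mutant libraries (log2 fold change 3.37, standard error 0.27, adjusted p = 1.39e-07 by edgeR's test). Its parental libraries were nearly equal, and every mutant library was above them. IFIH1 had 1.26, 1.24 and 1.36 CPM in the parental and 7.04, 7.21 and 4.96 CPM in the mutant libraries (log2 fold change 2.31, standard error 0.26, adjusted p = 2.95e-06), again with no overlap. DDX60 was close to the counting limit in parental cells, with 2, 2 and 3 counts against 91, 71 and 38 counts. The ratio of its summed counts, scaled by library size, was 13.8, with a 95% interval of 6.60 to 34.9 that covers counting error only. Within libraries, IFIH1 had 1.46, 1.42 and 1.57 counts per RIGI count in parental cells and 0.639, 0.815 and 0.690 in p85β KR-AA cells, and the gene with more counts changed from IFIH1 to RIGI. With length and GC offsets the log2 fold changes were 1.67 for RIGI, 1.22 for IFIH1 and 1.65 for DDX60, and IFIH1 no longer passed the fold threshold.

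PARP9 and DTX3L form an ADP-ribosyltransferase and ubiquitin ligase complex, and PARP14 is a mono-ADP-ribosyltransferase. Their genes lie in the same region of chromosome 3, and 3 of 3 were up-regulated, as were 28.6% of all genes tested. Of all genes tested over 4000 bases, such as PARP14 and DTX3L, 50.9% were up-regulated. Of those over 2000 and up to 4000 bases, such as PARP9, 23.9% were. DTX3L had 3.65, 2.84 and 5.24 CPM in the parental and 34.3, 36.5 and 38.2 CPM in the mutant libraries (log2 fold change 3.20, standard error 0.22, adjusted p = 3.40e-08). PARP14 had 2.92, 2.69 and 3.08 CPM in the parental and 31.6, 32.6 and 26.1 CPM in the mutant libraries (log2 fold change 3.37, standard error 0.19, adjusted p = 9.56e-09), and PARP9 had 2.92, 5.83 and 6.42 CPM in the parental and 25.2, 24.6 and 21.7 CPM in the mutant libraries (log2 fold change 2.23, standard error 0.25, adjusted p = 2.84e-06). In each of the 3 genes the lowest mutant library was above the highest parental library by more than 3-fold. PARP9 and DTX3L overlap by 240 bases on opposite strands, and it is not stated whether strand was used in counting, so reads from that stretch cannot be assigned to either. The count of PARP9 per DTX3L count was 0.800, 2.05 and 1.22 in parental and 0.735, 0.674 and 0.568 in mutant libraries. These ratios did not overlap, with fewer PARP9 counts per DTX3L count in each mutant library, but they are not corrected for gene length or GC content. The deposited lengths are 3198 bases for PARP9 and 5768 for DTX3L. With length and GC offsets PARP9, PARP14 and DTX3L kept a positive log2 fold change, at 1.32, 1.20 and 1.52. These values were closer together than without offsets, and none of the 3 genes passed the fold threshold.

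**Figure D2:**
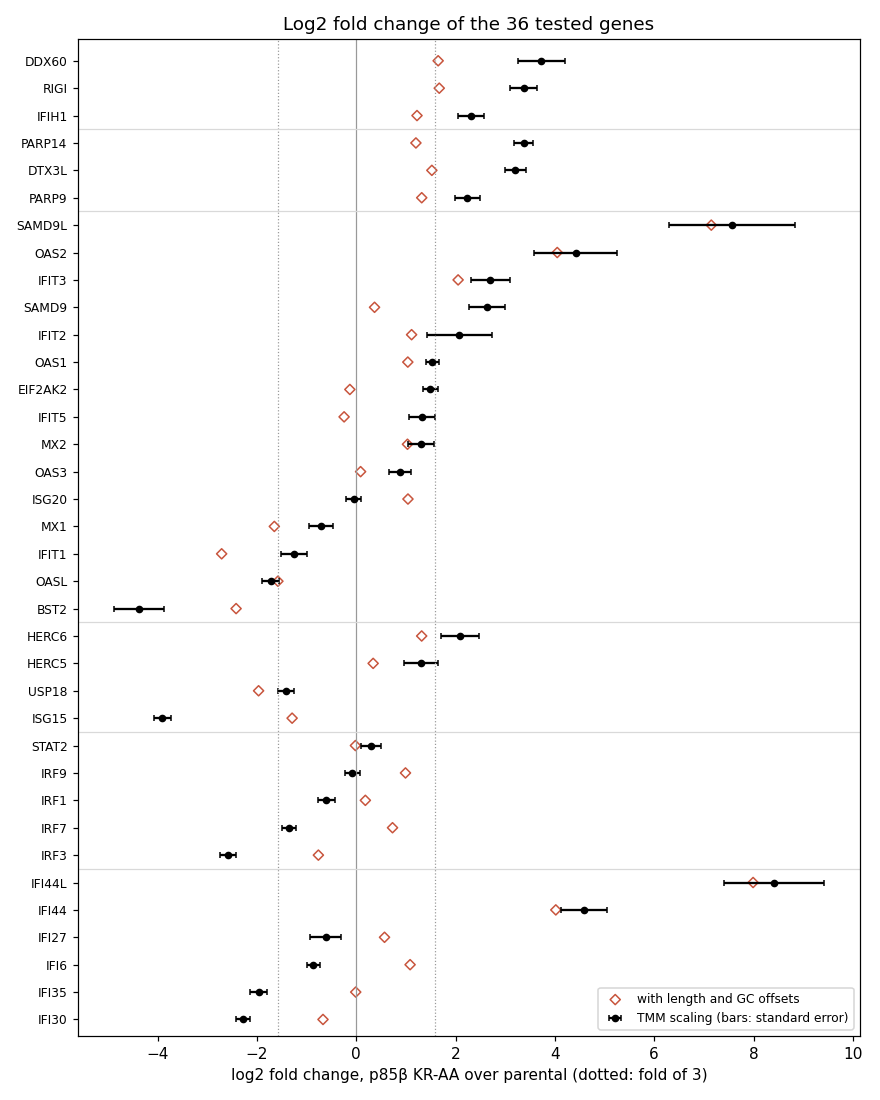
Log2 fold change of p85β KR-AA over parental cells for the 36 tested genes, grouped by role in the same order as the plot of levels. Black points with standard error bars are the fit with TMM scaling, open red diamonds are the fit with length and GC offsets, and dotted lines mark a fold of 3. Offsets move most of the rising genes toward 0, leave IFI44L, SAMD9L, IFI44 and OAS2 above 4 (IFI44L and SAMD9L have no parental count, so their fitted values depend on the prior count), and place IFIT1, USP18, MX1 and BST2 past the lower dotted line.

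Among the antiviral effectors, members of 1 family lay on both sides of 0. Of 16 listed, 15 could be tested, and 4 were up-regulated (IFIT3, OAS2, SAMD9 and SAMD9L), 2 were down-regulated (OASL and BST2) and 9 were neither. Their shares of 26.7% up- and 13.3% down-regulated genes were near the 28.6% and 17.6% of all genes tested.

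In the IFIT family, whose proteins bind viral RNA through tetratricopeptide repeats and whose genes lie side by side on chromosome 10, IFIT1 and its neighbors went apart. IFIT1 had 8.57, 13.0 and 8.45 CPM in the parental and 4.36, 5.33 and 2.81 CPM in the mutant libraries, lower without overlap (log2 fold change -1.26, standard error 0.27, adjusted p = 0.000753), past the p threshold but not the fold threshold. Under library totals it was at -0.32 and past neither. IFIT3 rose from 0.266, 0.291 and 0.864 CPM in the parental libraries to 3.68, 2.96 and 2.88 CPM in the mutant libraries (log2 fold change 2.70, standard error 0.40, adjusted p = 3.54e-05). IFIT5 had 3.32, 3.86 and 3.21 CPM in the parental and 10.3, 10.2 and 5.39 CPM in the mutant libraries (log2 fold change 1.32, adjusted p = 0.000573), higher in every mutant library, where the highest and lowest libraries differed by 1.91-fold. IFIT2 had 16, 3 and 0 counts in the parental and 74, 60 and 35 in the mutant libraries, and at a log2 fold change of 2.07 its adjusted p of 0.0105 just missed the threshold. This rested on parental replicate 1, without which it was called up-regulated (4.08, adjusted p = 0.000548). Without parental replicate 3 its log2 fold change was 1.41 (adjusted p = 0.0404). It was also called up-regulated with DESeq2, library totals, no filter on low counts, robust moderation and the replicate block. Ratios within a library, which do not depend on scaling but are not corrected for length or GC content, differed likewise, for pairs chosen after their values were seen. For each count of IFIT1 there were 0.388, 0.298 and 0.380 counts of IFIT5 in parental and 2.36, 1.92 and 1.92 in mutant libraries. Both genes have a similar length in the deposited table, 4302 bases for IFIT1 and 4029 for IFIT5. The counts of IFIT3 per IFIT1 count went from 0.031, 0.0225 and 0.102 to 0.844, 0.556 and 1.03. With length and GC offsets IFIT1 was down-regulated (-2.71, adjusted p = 1.78e-06), IFIT3 was still up-regulated (2.05), and IFIT5 turned to -0.24. In the annotation IFIT1, IFIT2 and IFIT3 overlap LIPA on the opposite strand, a gene whose unscaled means were 1151.7 parental counts and 2365.7 in mutant libraries. These means cannot be compared directly, as 1 count was worth 0.0617 to 0.0728 CPM in parental and 0.0273 to 0.0364 CPM in mutant libraries.

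The OAS enzymes make short 2′-5′ linked oligoadenylates that activate RNase L, and OASL is a relative without this activity that binds RIGI. OAS1 had 28.8, 31.8 and 31.6 CPM in the parental and 88.4, 84.4 and 94.2 CPM in the mutant libraries, a tight difference that fell just short of the fold threshold (log2 fold change 1.53, standard error 0.13, adjusted p = 2.30e-07). OAS2 was at the counting limit in parental cells, with 0, 0 and 1 counts, and had 20, 13 and 21 counts in mutant libraries, a ratio of 26.2 with a counting interval of 4.50 to 1050. OAS3 had 74.5, 36.9 and 71.6 CPM in the parental and 110.1, 105 and 122 CPM in the mutant libraries (log2 fold change 0.88, adjusted p = 0.00213). Parental replicate 2 was well below the other 2, and without it the log2 fold change was 0.60. OASL, by contrast, fell from 18.8, 20.4 and 18.5 CPM in the parental libraries to 5.46, 6.48 and 5.58 CPM in the mutant libraries (log2 fold change -1.72, standard error 0.17, adjusted p = 1.16e-06). For each count of OASL there were 1.53, 1.56 and 1.71 counts of OAS1 in parental libraries and 16.2, 13.0 and 16.9 in mutant libraries. The libraries of a group gave similar ratios, and the groups were far apart. With the length offset OAS3 turned to -0.46, and with both offsets it was 0.087. OASL was at -0.79 under library totals, at -1.58 with both offsets and with at least 10 counts in every library at -1.52, past the fold threshold in none of these, and tested against a fold of 3 its adjusted p was 0.202.

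MX1 and MX2, neighboring genes on chromosome 21 for dynamin-like GTPases that trap viral capsids, also diverged. MX1 had 4.78, 4.81 and 3.76 CPM in the parental and 2.75, 2.09 and 3.28 CPM in the mutant libraries, lower without overlap but short of the p threshold (log2 fold change -0.71, adjusted p = 0.0168), and MX2 had 1.86, 1.53 and 2.78 CPM in the parental and 5.37, 4.77 and 5.21 CPM in the mutant libraries (log2 fold change 1.30, adjusted p = 0.000422), higher without overlap. There were 0.389, 0.318 and 0.738 counts of MX2 per count of MX1 in parental and 1.95, 2.28 and 1.59 in mutant libraries, and the gene with more counts changed from MX1 to MX2. Library totals turned MX1 to 0.21. The annotated MX1 overlaps TMPRSS2 on the opposite strand, with unscaled means of 196.7 parental and 435.3 mutant counts, where a parental count is worth more CPM.

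SAMD9 and SAMD9L, neighbors on chromosome 7 whose proteins inhibit translation in poxvirus infection, were both up-regulated. SAMD9 had 1.53, 2.11 and 0.925 CPM in the parental and 11.2, 11.5 and 5.25 CPM in the mutant libraries (log2 fold change 2.63, standard error 0.36, adjusted p = 2.04e-05). SAMD9L had no count in a parental library and 60, 25 and 14 counts in mutant libraries, and lay at least 4.60-fold higher than the parental floor of 3 counts per library. The third mutant library was the lowest of its group in both genes. With length and GC offsets SAMD9 was at 0.37 and no longer passed a threshold.

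Of the other effectors, EIF2AK2, the kinase PKR that halts translation on double-stranded RNA, had 19.9, 24.5 and 23.9 CPM in the parental and 62.7, 70.5 and 59.3 CPM in the mutant libraries (log2 fold change 1.49, adjusted p = 9.75e-07), higher without overlap but under the fold threshold, and with both offsets it turned to -0.13. ISG20, an RNA exonuclease, had 38.7, 50.8 and 41.2 CPM in the parental and 43.3, 37.6 and 45.1 CPM in the mutant libraries, which overlapped (log2 fold change -0.052, adjusted p = 0.758). BST2, or tetherin, which holds budding virus at the cell surface, was low in parental cells and fell further. It had 65, 68 and 38 counts in parental libraries and 12, 1 and 4 in mutant libraries (log2 fold change -4.38, standard error 0.50, adjusted p = 3.86e-06), and it stayed down-regulated with both offsets (-2.42, adjusted p = 0.0011).

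**Figure D3:**
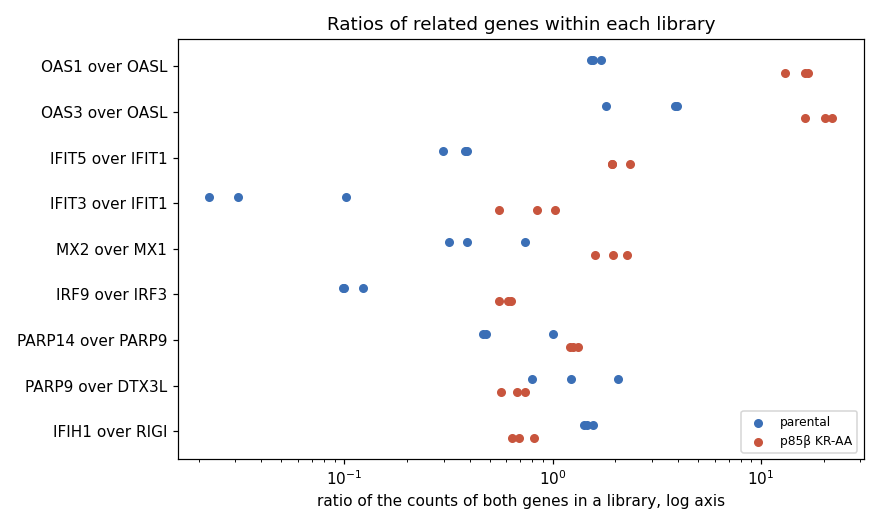
Ratio of the counts of related members within each library, on a log axis. Blue points are the 3 parental and red points the 3 mutant libraries, and a ratio does not depend on how libraries are scaled but is not corrected for gene length or GC content. For OAS1 over OASL the parental libraries lie at 1.53 to 1.71 and the mutant libraries at 13.0 to 16.9, and the 9 ratios drawn were taken from the 13 of 16 computed pairs without overlap. The others, OAS1 over OAS3, HERC6 over HERC5 and STAT2 over IRF9, overlapped. Of all single genes tested, 83.5% showed no overlap between the groups.

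ISG15, the ubiquitin-like protein that gives its name to the modification, had the largest difference in CPM of all members. It had 808, 1031 and 704 CPM in the parental and 51.8, 56.8 and 60.7 CPM in the mutant libraries, 15-fold lower (log2 fold change -3.91, standard error 0.17, adjusted p = 2.55e-09). Per kilobase of gene length ISG15 was the highest member in both groups, at a mean of 1192 CPM per kilobase in parental cells, followed by IRF3 at 163.3, and at 79.4 in p85β KR-AA cells, followed by OAS1 at 52.8. It made up 45.9% to 52.9% of the summed CPM of the 38 genes in parental libraries and 6.83% to 7.77% in mutant libraries. Under library totals ISG15 remained down-regulated (-2.97), and with both offsets its log2 fold change was -1.29, past the p threshold (adjusted p = 5.14e-07) but not the fold threshold. The enzymes that handle ISG15 did not follow it as a group. HERC5, its ligase, had 1.40, 0.510 and 1.36 CPM in the parental and 2.86, 2.82 and 2.48 CPM in the mutant libraries (log2 fold change 1.30, adjusted p = 0.00315), past the p threshold alone. HERC6, the neighbor of HERC5 on chromosome 4, was up-regulated, with 0.531, 1.17 and 2.53 CPM in the parental and 6.76, 6.02 and 5.43 CPM in the mutant libraries (log2 fold change 2.09, standard error 0.38, adjusted p = 0.000225). In both genes the parental libraries were spread by more than 2-fold. USP18, which removes ISG15 and also blocks the type I receptor, had 27.5, 27.0 and 29.0 CPM in the parental and 9.41, 10.1 and 11.7 CPM in the mutant libraries, lower without overlap (log2 fold change -1.42, adjusted p = 3.32e-06) but under the fold threshold, which it passed with both offsets (-1.97, adjusted p = 4.63e-07). The activating enzyme UBA7 (log2 fold change 0.16) and the conjugating enzyme UBE2L6 (-0.36) of the pathway list did not pass a threshold, with adjusted p-values of 0.625 and 0.0299.

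Of the 5 transcription factors among the members, 0 were up-regulated and 1 (20%) was down-regulated. The shares of all genes tested were 28.6% and 17.6%, and with 5 genes the difference was not tested. IRF3, which is activated by the sensors and turns on interferon genes, fell from 252, 299.6 and 211 CPM in the parental libraries to 39.4, 39.8 and 48.8 CPM in the mutant libraries (log2 fold change -2.57, standard error 0.16, adjusted p = 1.88e-08). With both offsets IRF3 was at -0.76 (adjusted p = 6.73e-05), under the fold threshold. IRF7, its partner in the amplification of the response, had 111, 119.7 and 92.4 CPM in the parental and 40.7, 40.5 and 46.1 CPM in the mutant libraries (log2 fold change -1.35, adjusted p = 1.56e-06), lower without overlap but under the fold threshold. IRF1 had 36.0, 27.3 and 37.1 CPM in the parental and 21.4, 20.3 and 24.5 CPM in the mutant libraries (log2 fold change -0.60, adjusted p = 0.00476). STAT2 and IRF9, subunits of the factor that binds the response element, did not pass a threshold under TMM scaling. STAT2 had 36.8, 20.5 and 33.1 CPM in the parental and 33.4, 36.6 and 40.6 CPM in the mutant libraries, where parental replicate 2 was low, and IRF9 had 25.0, 29.6 and 25.9 CPM in the parental and 24.1, 25.0 and 26.9 CPM in the mutant libraries. Their log2 fold changes were 0.29 (standard error 0.20, adjusted p = 0.196) and -0.082 (standard error 0.15, adjusted p = 0.62). The side of 0 on which IRF9, IRF1 and IRF7 lay depended on the setting, with log2 fold changes of 0.85 and 0.31 for IRF9 and IRF1 under library totals, where STAT2 was at 1.20 (adjusted p = 0.000707), and 0.73 for IRF7 with both offsets. The count of IRF9 per IRF3 count was 0.0993, 0.0989 and 0.123 in parental and 0.612, 0.629 and 0.552 in mutant libraries. IRF3 shares 734 bases with BCL2L12 on the opposite strand, which had unscaled means of 2345.1 parental and 866.5 mutant counts. IRF9 lies with a readthrough gene on its own strand, which had unscaled means of 472.3 and 295.1 counts, against 401.1 and 780.4 for IRF9. The counts of these 2 genes were not summed, and the difference given for IRF9 may depend on how shared reads were divided.

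Among the remaining interferon-induced genes, IFI44 and IFI44L, neighbors on chromosome 1, were at 3 counts or fewer in each parental library and rose in p85β KR-AA cells, and IFI35 and IFI30 fell. IFI44L had no count in a parental library and 88, 58 and 30 in mutant libraries, and lay at least 8.41-fold higher than a parental floor of 3 counts per library. IFI44 had 2, 1 and 3 counts against 129, 121 and 62, a ratio of 25.2 with a counting interval of 11.5 to 69.2. Both were up-regulated, and both stayed so with length and GC offsets, with a log2 fold change of 4.02 for IFI44. IFI35, a partner of the protein NMI, had 37.1, 39.2 and 30.2 CPM in the parental and 9.52, 7.83 and 9.91 CPM in the mutant libraries (log2 fold change -1.97, standard error 0.17, adjusted p = 3.56e-07), and it was under the fold threshold with library totals (-1.03) and at -0.011 with both offsets. IFI6, a small protein of mitochondria and the endoplasmic reticulum, had 48.8, 50.6 and 48.3 CPM in the parental and 26.4, 26.8 and 28.0 CPM in the mutant libraries (log2 fold change -0.86, adjusted p = 5.53e-05), and IFI27, a related protein, had 1.46, 1.68 and 2.41 CPM in the parental and 1.20, 1.32 and 1.09 CPM in the mutant libraries (log2 fold change -0.62, adjusted p = 0.0767). Library totals brought IFI6 to 0.064 and IFI27 to 0.29.

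IFI30, the lysosomal thiol reductase GILT that prepares antigens for presentation, lies downstream of PIK3R2 on chromosome 19, and a readthrough gene (ENSG00000268173) runs over both. IFI30 had 1283, 1279 and 1467 counts in parental and 738, 487 and 501 in mutant libraries, and fell by 2.28 on the log2 scale (standard error 0.14, adjusted p = 1.46e-08). The readthrough gene had 2902, 2288 and 2807 counts against 1766, 1202 and 1781, and its log2 fold change was -1.78 (adjusted p = 5.39e-07). As reads in the shared exons can go to either, the counts of both were also summed, and the sum was down-regulated with a log2 fold change of -1.93 (adjusted p = 8.25e-08). IFI30 alone was no longer past the fold threshold under library totals (-1.35) or with both offsets (-0.67).

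The direction of the members varied with their length. Of the 4 tested members of at most 1000 bases (ISG15, IFI6, IFI27 and IFI30), 2 were down-regulated and 0 up-regulated, and of the 12 longer than 4000 bases, 7 were up-regulated and 0 down-regulated. All genes tested showed the same order, with 10.5% up- and 39.4% down-regulated among 1593 genes of at most 1000 bases and 50.9% and 3.97% among 4956 genes over 4000 bases. Between these limits, the 7 members of up to 2000 bases had 1 up- and 3 down-regulated genes. Of all genes tested in that band, 13.4% were up- and 30.4% down-regulated. The 13 members of over 2000 and up to 4000 bases had 5 and 1, against 23.9% and 15.6% of all genes in that band. Across the 36 members, Spearman's rho of the log2 fold change was 0.65 with length and -0.74 with GC content, and across all genes tested 0.45 and -0.57. These are descriptions across genes, which share the same 6 libraries and are not independent. The offsets left 7 of the 13 up-regulated members called (IFIT3, IFI44, IFI44L, OAS2, RIGI, DDX60 and SAMD9L) and 1 of the 6 down-regulated ones (BST2). They added IFIT1, MX1 and USP18 as down-regulated, genes of 4302, 2810 and 2129 bases.

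The genes upstream of this program were taken from a list of 71 other genes of the interferon pathway, of which 52 had enough counts. Among them, 13 (25%) were up-regulated and 4 (7.69%) down-regulated, against 28.6% and 17.6% of all genes tested, and their median log2 fold change was 0.48, against 0.32. Both shares were below those of the transcriptome, and the difference was not tested. Messages of the interferons themselves were near the limit of detection. Of 14 ligand genes (type I, IFNG and type III), 9 had no count in any library. IFNB1 had 0, 4 and 2 counts in parental and none in mutant libraries, and IFNL1 had 0, 2 and 3 and none. IFNE, IFNL2 and IFNL3 had at most 5 counts in a library. A count of 0 allows up to 3 counts, or 0.185 to 0.218 CPM in a parental and 0.0818 to 0.109 CPM in a mutant library.

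Of the receptor chains, IFNAR1, a chain of the type I interferon receptor, rose from 5.05, 2.62 and 5.12 CPM in the parental libraries to 29.0, 31.3 and 24.5 CPM in the mutant libraries (log2 fold change 2.72, standard error 0.24, adjusted p = 3.24e-07). Its partner IFNAR2 had 16.7, 15 and 11.8 CPM in the parental and 12.1, 13.5 and 11.4 CPM in the mutant libraries, which overlapped (log2 fold change -0.23, adjusted p = 0.249). The log2 fold changes of the other chains were 0.79 for IFNGR1, 0.61 for IFNGR2, -0.63 for IFNLR1 and -0.34 for IL10RB, all under the fold threshold. Of the kinases, JAK1 had 15.01, 13.5 and 21.6 CPM in the parental and 94.2, 97.2 and 86.3 CPM in the mutant libraries (log2 fold change 2.47, adjusted p = 6.06e-08) and JAK2 had 0.465, 0.874 and 0.370 CPM in the parental and 2.78, 3.87 and 2.40 CPM in the mutant libraries (log2 fold change 2.42, adjusted p = 5.48e-05), and both were up-regulated. TYK2, the kinase of the type I receptor beside JAK1, had 132, 106 and 95.8 CPM in the parental and 46.0, 42.6 and 53.6 CPM in the mutant libraries (log2 fold change -1.23, adjusted p = 8.36e-06), lower without overlap but under the fold threshold. STAT3 was at a log2 fold change of 1.38 (adjusted p = 2.34e-06). With both offsets IFNAR1, JAK1 and JAK2 stayed positive, at 0.86, 1.32 and 0.49, below the fold threshold.

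Of 10 other sensors and adaptors tested, 3 (30%) were up-regulated and 1 (10%) was down-regulated, against 28.6% and 17.6% of all genes tested. TLR3, CGAS and TBK1, an endosomal RNA sensor, a cytosolic DNA sensor and the kinase that phosphorylates IRF3, were up-regulated, and IKBKE, the relative of TBK1, was down-regulated. TBK1 had 3.59, 4.44 and 3.27 CPM in the parental and 14.1, 14.9 and 9.77 CPM in the mutant libraries (log2 fold change 1.78, adjusted p = 1.16e-05), and IKBKE had 28.7, 28.6 and 26.6 CPM in the parental and 8.40, 7.03 and 9.88 CPM in the mutant libraries (log2 fold change -1.73, adjusted p = 1.16e-06). With both offsets TLR3, TBK1 and IKBKE were at 0.91, 0.56 and -0.70 and no longer called, while CGAS was still up-regulated (2.42), and under library totals IKBKE was at -0.81. CGAS had 4, 5 and 0 counts in parental and 73, 49 and 65 in mutant libraries. STING1, through which CGAS signals, had 33.3, 25.3 and 27.7 CPM in the parental and 20.4, 19.3 and 21.4 CPM in the mutant libraries (log2 fold change -0.50, adjusted p = 0.0107). MAVS, the adaptor of RIGI and IFIH1, was higher without overlap (log2 fold change 0.81, adjusted p = 0.00219), and it turned to -0.40 with both offsets. Of 6 inhibitors, SOCS3 and PIAS1 were up-regulated (33.3%) and SOCS1 and PTPN6 down-regulated (33.3%), against 28.6% and 17.6% of all genes tested. With both offsets PTPN6 was at -0.91, under the fold threshold. SOCS3, which blocks JAK signaling downstream of several cytokine receptors, had 15.7, 12.5 and 14.3 CPM in the parental and 105, 102 and 118 CPM in the mutant libraries (log2 fold change 2.93, standard error 0.15, adjusted p = 5.96e-09), and with both offsets it was at 4.28. SOCS1, its relative at the interferon receptors, had 2.46, 4.08 and 3.21 CPM in the parental and 1.06, 0.905 and 1.20 CPM in the mutant libraries (log2 fold change -1.61, adjusted p = 0.000206) and turned to 1.01 with both offsets.

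**Figure D4:**
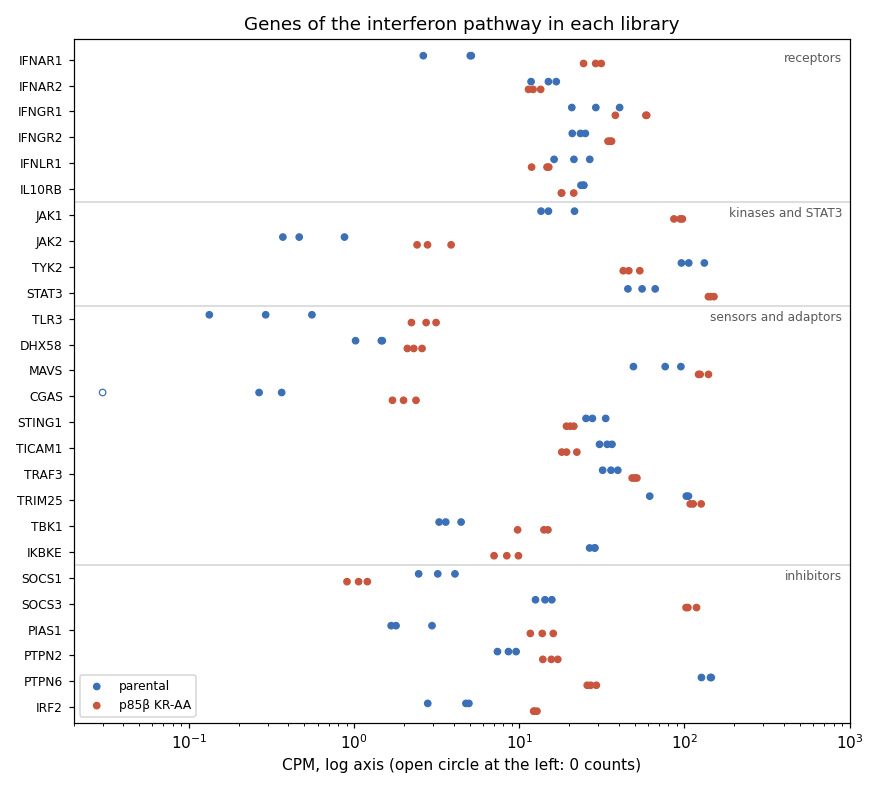
Level in CPM, on a log axis, of tested receptors, kinases and STAT3, sensors and adaptors, and inhibitors of the interferon pathway in each library. Blue points are the 3 parental and red points the 3 mutant libraries, and the open circle is a library with 0 counts. IFNAR1, JAK1 and SOCS3 lie to the right in p85β KR-AA cells, IKBKE and PTPN6 to the left, and IFNAR2 overlaps.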

How the data were processed

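RNA-seq of DLD1 parental and p85β KR-AA cells, 3 libraries each, was analysed. Per the study's methods, paired-end reads were trimmed (SeqPrep, Sickle) and FPKM values were used. The submitters' processing notes list HISAT2 2.1.0, RSEM 1.3.1, DESeq2 1.24.0 and the genome build hg18, without roles. Estimated counts for each Ensembl gene were deposited by the authors, which were not normalized, and a gene length in bases as another column. The estimated counts, which the design had assumed to be whole, were rounded before the test. Groups were taken from the labels.

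Symbols and GC content came from GENCODE 44 lifted to GRCh37, which matched 56745 of 58884 gene IDs. Low genes were removed with filterByExpr (minimum count 10, minimum total 15), libraries were scaled with TMM, and genes were tested with the quasi-likelihood F test of edgeR 4.0.16 under R 4.3.3. All p-values were adjusted by Benjamini-Hochberg over all genes tested. Calls needed a 3-fold change and an adjusted p below 0.01. The scripts were tested on simulated data. Totals of 20301396 to 26712816 counts made 1 count worth 0.0273 to 0.0728 CPM, and intervals and floors of 3 counts cover counting error only. Replicates of a group differed by more than sampling noise (chi-square per degree of freedom 4.08 to 35.8).

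All 38 members and, of a pathway list, any gene could be named, with ligands, receptors and kinases named whatever their result. A gene of the pathway list, counted in its totals, is not reported here. Members and lists were chosen with earlier results of these data known. Alternatives were DESeq2 1.42.0, library totals, other filters and thresholds, a test against a fold of 3, robust moderation, a replicate block, spline offsets for length and GC content (5 degrees of freedom), and each library left out in turn. Promoter windows came from RefSeq, of another build than the counts, and were matched by symbol only.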

Additional observations from a re-analysis of the deposited data

How the results depend on the processing

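In place of 13 up- and 6 down-regulated members, library totals gave 20 and 3 (13 and 3 of them shared), at least 10 counts in every library gave 8 up-regulated (6 shared), length and GC offsets gave 7 up-regulated (7 shared), and an adjusted p of 0.01 with no fold limit gave 11 lower. In place of 13 up- and 4 down-regulated pathway genes, library totals gave 24 and 0 (13 and 0 shared), length and GC offsets 5 and 1 (4 and 0 shared, with DHX58 and APOL6 added), and no fold limit 25 and 13. Down-regulated pathway genes numbered 2 with at least 10 counts in every library, 9 at a fold of 2 and an adjusted p of 0.05, and 2 when the fold change was tested against 3. The other alternatives kept these counts within 1.5 times. The filter of at least 10 counts removes low genes such as IFI44, IFI44L, OAS2, SAMD9L, DDX60 and IFIT3, and fewer members were tested.

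The median log2 fold change of the members was 1.30. It was 1.20 with DESeq2, 2.21 with library totals, 0.13 with at least 10 counts in every library, 0.85 with the length offset and 0.86 with both offsets. Leaving out each library in turn gave 0.96 to 1.33 for this median, 13 to 14 up-regulated and 6 down-regulated members, and 13 to 16 up- and 3 to 5 down-regulated pathway genes. An alternative chosen after seeing the data, in which members with no parental count were set to their bound, left the median at 1.30. The edited gene PIK3R2 went from -0.93 to 0.33 with both offsets and ran from -1.26 to -0.45 with single libraries left out. Why these values moved was not tested.

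Directions of single members that turned all belong to genes that were not called. With library totals the log2 fold changes were 0.064 for IFI6, 0.29 for IFI27, 0.88 for ISG20, 0.21 for MX1, 0.31 for IRF1 and 0.85 for IRF9. With the length offset they were 0.46 for IFI6, 0.74 for IFI27, 0.81 for ISG20, -0.46 for OAS3, -0.36 for STAT2 and 0.61 for IRF9. With both offsets they were -0.24 for IFIT5, 1.08 for IFI6, 0.57 for IFI27, 1.04 for ISG20, -0.017 for STAT2, 0.18 for IRF1, 0.73 for IRF7, 0.99 for IRF9 and -0.13 for EIF2AK2. With at least 10 counts in every library ISG20 was at 0.14 and IRF9 at 0.12, and with single libraries left out ISG20 ran from -0.143 to 0.045, above 0 without parental replicate 2 (0.045) or p85β KR-AA replicate 2 (0.030). Both offsets ended the call of 11 members and library totals that of 3.

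No sign of pairs by replicate number was seen, but deviations from a mean of 3 libraries are not independent, so this check cannot exclude pairing. The deviations of same-numbered libraries correlated at -0.136, 0.119 and -0.045 against a mean of 0.01 for other numbers. Only 1 of 3 parental and 1 of 3 mutant libraries correlated best with its own number. With the replicate block 14 members were up- and 6 down-regulated, and 14 and 4 pathway genes. With the block, and without the filter, edgeR's estimate of the prior degrees of freedom was infinite. Depth limits the genes near 0 in parental cells, for which only bounds or wide intervals could be given.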

Other observations

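Of 30 other interferon-induced genes in the pathway list, 25 could be tested, 4 were up-regulated and 1 was down-regulated by edgeR's quasi-likelihood test, and their median log2 fold change was 0.026. These shares of 16% and 4% compare with 28.6% and 17.6% of all genes tested, whose median was 0.32, and the difference was not tested. ADAR, which edits double-stranded RNA, rose from 68.2, 33.0 and 70.0 CPM in the parental libraries to 258, 247 and 276 CPM in the mutant libraries (log2 fold change 2.19, standard error 0.23, adjusted p = 1.77e-06), and its log2 fold change without parental replicate 2, the lowest, was 1.89. ZC3HAV1, the antiviral protein ZAP that binds CpG-rich RNA, and EPSTI1 and TDRD7 were also up-regulated, at 1.85, 2.92 and 2.15. TRIM21, a cytosolic antibody receptor and ubiquitin ligase, fell from 81.5, 96.9 and 74.3 CPM in the parental libraries to 19.8, 21.0 and 23.2 CPM in the mutant libraries (log2 fold change -1.98, standard error 0.15, adjusted p = 8.39e-08). With both offsets EPSTI1 was at 1.91 and still up-regulated. ADAR, at 1.19, TRIM21, at -1.38, ZC3HAV1 and TDRD7 were no longer called.

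The membrane proteins IFITM1, IFITM2 and IFITM3, which block virus entry, were lower without overlap (log2 fold changes -1.11, -1.38 and -1.54) but under the fold threshold, and with both offsets they turned to 0.79, 0.69 and 0.76. These 3 genes are closely related copies, among which reads can be split. GBP1, a guanylate-binding protein, had no count in a parental library and 31, 25 and 9 counts in mutant libraries, at least 3.12-fold above the parental floor of 3 counts per library, and was below the filter on low counts. It was called up-regulated with no filter, and where any one parental replicate or p85β KR-AA replicate 3 was left out. RSAD2, the antiviral enzyme viperin, had 2, 0 and 0 counts in parental and 10, 0 and 0 in mutant libraries. CXCL10, a chemokine strongly induced by interferon, had no count in any library.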
